A study of Mus musculus with 8 samples.

Results

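Histone deacetylases (HDACs) are the enzymes that valproic acid (VPA) is best known for inhibiting, and 10 of their genes were read in the prefrontal cortex (PFC) of Rnf146-overexpressing mice. The set was chosen with earlier results of these data known, and its genes were taken by symbol. The members were *Hdac1*, *Hdac2*, *Hdac3*, *Hdac4*, *Hdac5*, *Hdac6*, *Hdac7*, *Hdac8*, *Hdac9* and *Hdac11*. All 10 were among the 15039 genes of the expression table, so none was lost to a filter on low values. *Hdac10* was not in the set and was read among the other deacetylases.

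HDACs remove acetyl groups from lysines of histone tails and of other proteins. Class I enzymes (HDAC1, HDAC2, HDAC3 and HDAC8) are mostly nuclear and, apart from HDAC8, work inside large corepressor complexes. Class IIa enzymes (HDAC4, HDAC5, HDAC7 and HDAC9) have little catalytic activity of their own, bind the MEF2 transcription factors, recruit HDAC3 through NCoR and SMRT, and leave the nucleus when kinases phosphorylate them and 14-3-3 proteins bind. Class IIb HDAC6 deacetylates tubulin in the cytoplasm, and HDAC11 is the sole class IV enzyme. VPA inhibits the class I enzymes and, less strongly, class IIa enzymes, whereas HDAC6 is known as insensitive to it. VPA given during pregnancy is used to make a mouse model of autism spectrum disorder. The mice described here received no VPA, so the measurements concern the RNA of the enzymes and not their inhibition.

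RNA sequencing covered 8 PFC libraries, 4 labelled AAV-RNF146 and 4 labelled AAV-eGFP, each numbered as replicate 1 to 4. The mice of both groups were wild-type C57BL/6NCrljOri males, injected bilaterally in the PFC at 6 weeks of age, and the tissue was taken 4 weeks later. The AAV2/1 vector carried mouse *Rnf146* and eGFP, or eGFP alone, behind the hsyn (synapsin) promoter, so both groups carried virus and eGFP, and the transgene was driven in neurons while RNA was taken from every cell type of the dissected cortex. The sequenced Rnf146 mice were ones in which overexpression and social deficits had been seen, and no such selection is described for the eGFP mice. The sources used here do not say what a replicate number stands for beyond its label or whether a library held 1 mouse, so p-values measure the spread between these samples.

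The table carries the name of normalized counts, but its values were read here as variance-stabilized log2 values, an inference from their range and from a curve fitted to mean counts with a largest residual of 0.539. Every percent change and count per kilobase below rests on that curve. For each gene, the values of same-numbered libraries add up to the same sum in all 4 pairs, so they had been centred within pairs. A gene therefore carries 4 independent values, namely the difference of Rnf146 from eGFP in each pair, and groups do not overlap when all 4 differences have 1 sign. Differences are given in log2 units of this scale, with the SD over 4 pairs. The scale shrinks changes of weakly expressed genes: its slope against the log2 count is 0.441 for a gene with 200 normalized counts, 0.613 with 500 and 0.841 with 2000. Sequencing depth is unknown, because no total survives in these values. Calls required an adjusted p no higher than 0.1 in a limma fit that took the replicate number as its block. *Rnf146* itself matched the labels, with eGFP values from 10.35 to 10.50, Rnf146 values from 13.01 to 13.17 and an average difference of 2.64 ± 0.13.

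One of the 10 members, *Hdac7*, was called, and it fell in Rnf146-overexpressing mice. Among all genes, 0.432% were called lower, 0.818% were called higher and 1.25% were called in either direction. The other 9 members had adjusted p-values from 0.344 to 0.926 in the same limma test. Their mean differences ran from -0.08 for *Hdac4* to 0.12 for *Hdac1*. The median difference of the 10 members was -0.04, beside 0.00 for all genes, and their median absolute difference was 0.060, beside 0.049 for all genes. Differences of 7 members were below 0 on average, as were those of 49.5% of all genes, and those of 3 (*Hdac1*, *Hdac8* and *Hdac11*) were above 0. An unadjusted p below 0.05 was found for 2 members, *Hdac7* on the lower side and *Hdac1* on the higher. The share of all genes with such a p was 12.4%, made up of 5.98% on the lower side and 6.45% on the higher. A mean difference of at least 0.2 in size was found for *Hdac7* alone among the members and for 4.85% of all genes.

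**Figure D1:**
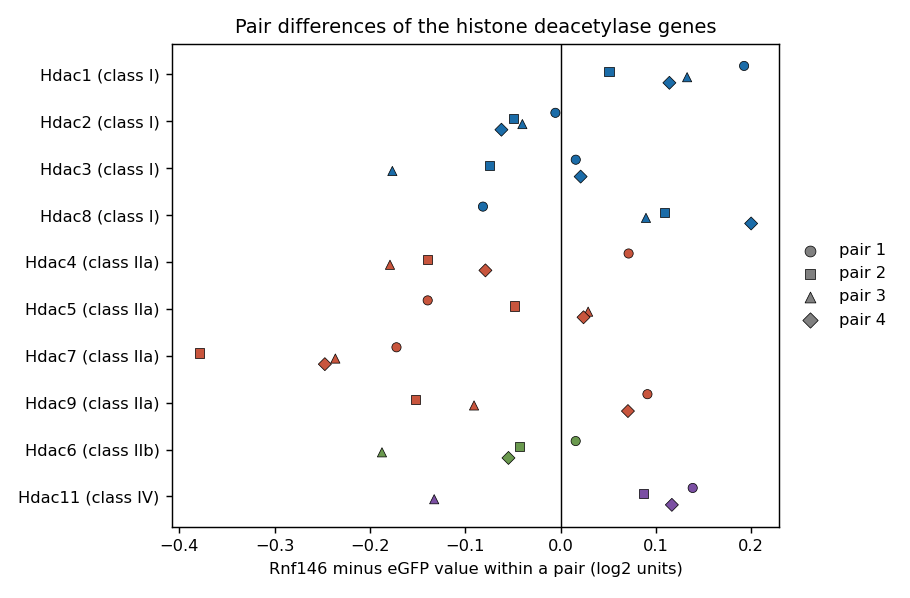
Difference between the Rnf146 and the eGFP library of each pair, in log2 units (x axis), for the 10 histone deacetylase genes (rows, coloured by class), with 1 symbol per pair. All 4 symbols of *Hdac7* lie between -0.38 and -0.17, those of *Hdac1* lie above 0, and those of *Hdac2* lie just below 0.

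*Hdac7* encodes a class IIa enzyme known from thymocytes and from the endothelium of blood vessels. Its gene (ENSMUSG00000022475.21) lies on the minus strand of chromosome 15, from 97687372 to 97742383 of GRCm39. The eGFP values were 10.56, 10.67, 10.59 and 10.60, and the Rnf146 values were 10.39, 10.29, 10.36 and 10.35. Every Rnf146 library was below every eGFP library, and the gap was largest in pair 2. The 4 pair differences were -0.17, -0.38, -0.24 and -0.25, averaging -0.26 ± 0.09 (SD, n = 4 pairs). The 95% interval ran from -0.37 to -0.14, and limma gave an adjusted p of 0.0758. On the scale of normalized counts, this corresponds to a change of -21.4%, with an interval from -29.3% to -12.6%. Only 0.778% of all genes, *Hdac7* included, had a mean difference this low or lower.

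The call of *Hdac7* held without pair 1 and was lost when pair 2, 3 or 4 was left out. Its mean difference was between -0.29 and -0.22 in these fits, and the adjusted p by limma was 0.054 without pair 1, 0.328 without pair 2, 0.147 without pair 3 and 0.322 without pair 4. Across all genes, the number called was 421, 42, 169 and 14 in these 4 fits. Without the replicate block, the adjusted p of *Hdac7* was 0.0018, and *Hdac7* and *Hdac1* were the 2 members called, beside 21.5% of all genes. *Slc48a1*, a heme transporter gene on the opposite strand that overlaps *Hdac7*, had differences of 0.07, 0.01, 0.11 and 0.04, with a mean of 0.06 and an adjusted p of 0.636 by limma. The library kit was stranded, but whether strand was used in counting is not given in the sources used here.

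The other class IIa genes differed less, and none kept 1 direction over the pairs. *Hdac4*, whose product is abundant in forebrain neurons and shuttles out of the nucleus with synaptic activity, had pair differences of 0.07, -0.14, -0.18 and -0.08, averaging -0.08 ± 0.11 (SD over 4 pairs), and limma gave an adjusted p of 0.579. *Hdac5*, another activity-dependent neuronal enzyme, had differences of -0.14, -0.05, 0.03 and 0.02, with a mean of -0.03 ± 0.08 and an adjusted p of 0.832. *Hdac9*, known from muscle as a partner of MEF2, had differences of 0.09, -0.15, -0.09 and 0.07, with a mean of -0.02 ± 0.12 and an adjusted p of 0.926. The eGFP and Rnf146 libraries overlapped for all 3 genes.

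Averaged over the 4 class IIa genes, the difference was -0.04, -0.18, -0.12 and -0.06 in the 4 pairs, with *Hdac7* the largest contributor. Within each pair, *Hdac7* had a lower difference than its 3 class IIa relatives. The difference of *Hdac7* minus that of *Hdac9* was -0.24 ± 0.07 (SD, n = 4 pairs), that of *Hdac7* minus *Hdac4* was -0.18 ± 0.09, and that of *Hdac7* minus *Hdac5* was -0.22 ± 0.13. All 4 pairs were below 0 in each of these contrasts, and the exact two-sided sign-flip test gave 0.125, the smallest p that 4 pairs allow. These 3 contrasts share the values of *Hdac7*, the 1 called member, so they are not separate support for its fall. With those of *Hdac1* against *Hdac2* and *Hdac4* against *Hdac5*, they made 5 in all. *Hdac4* and *Hdac5*, the class IIa genes best known from neurons, differed by -0.05 ± 0.18, with an exact sign-flip p of 0.75.

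**Figure D2:**
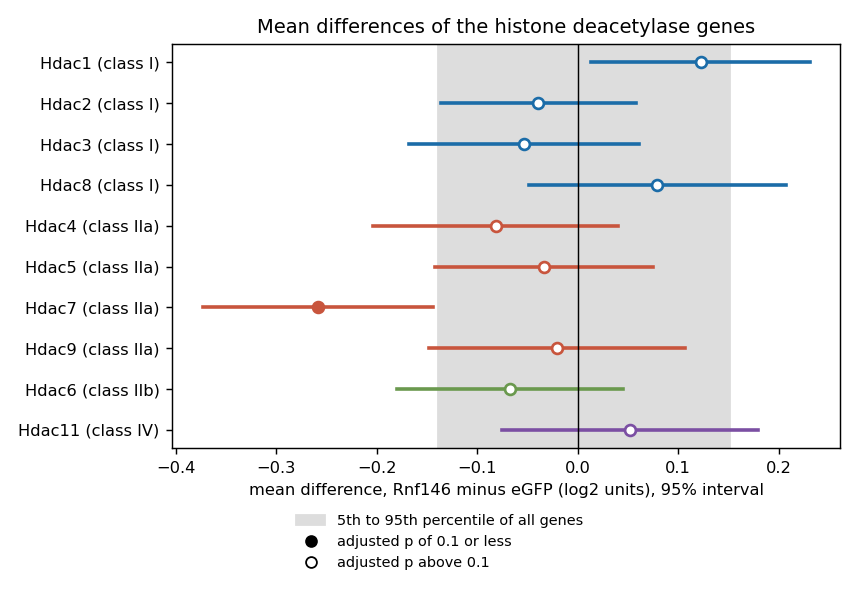
Mean difference between Rnf146 and eGFP libraries with its 95% interval, in log2 units (x axis), for the 10 genes (rows); the grey band spans the 5th to the 95th percentile of all 15039 genes, from -0.14 to 0.15, and a filled point is an adjusted p of 0.1 or less. *Hdac7* is the single filled point and the single mean outside the band.

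Class I genes had means on both sides of 0, and none was called. *Hdac1* encodes a catalytic subunit of the NuRD, Sin3 and CoREST complexes, and in the adult brain its protein is known mostly from glia and progenitor cells. Its gene (ENSMUSG00000028800.17) lies on the minus strand of chromosome 4, from 129409895 to 129436631 of GRCm39. The eGFP values were 9.76, 9.83, 9.79 and 9.79, and the Rnf146 values were 9.95, 9.88, 9.92 and 9.91. Every Rnf146 library was above every eGFP library, by 0.19, 0.05, 0.13 and 0.11 in the 4 pairs. The mean was 0.12 ± 0.06 (SD, n = 4 pairs), with a 95% interval from 0.01 to 0.23, and it did not pass the threshold, with an unadjusted p of 0.0315 and an adjusted p of 0.344 by limma. In normalized counts this corresponds to 14.3%, with an interval from 1.59% to 28.7%. Without the replicate block, the adjusted p was 0.0172.

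The reads of *Hdac1* are less certain than those of the other members. Of the 31-base words in its transcripts, 28.1% also occur in transcripts of other genes, and 24.2% occur in the pseudogene *Hdac1-ps*, which was not in the table. For the other 9 members, at most 1.14% of the words were shared. *Hdac1* and *Hdac2* shared none with each other.

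*Hdac2* encodes the close relative of HDAC1 that takes its place in the same complexes and is better known from mature neurons. Its gene (ENSMUSG00000019777.18) lies on the plus strand of chromosome 10, from 36850435 to 36877890 of GRCm39. The eGFP values were 11.06, 11.08, 11.07 and 11.08, and the Rnf146 values were 11.05, 11.03, 11.03 and 11.02. The groups did not overlap, but the differences were small, at -0.01, -0.05, -0.04 and -0.06, and that of pair 1 turned to 0.0017 after median centring and 0.0023 after quantile normalization. Their mean was -0.04 ± 0.02 (SD, n = 4 pairs), with a 95% interval from -0.14 to 0.06 and an adjusted p of 0.766 by limma. The difference of *Hdac1* exceeded that of *Hdac2* in all 4 pairs, by 0.20, 0.10, 0.17 and 0.18, or 0.16 ± 0.04 on average, with an exact sign-flip p of 0.125. All 4 differences of *Hdac1* were above 0 and all 4 of *Hdac2* were below 0. The direction of this contrast and its p were thereby fixed, so it is not separate support for either gene.

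Groups that did not overlap were found for 3 of the 10 members, *Hdac1* higher and *Hdac2* and *Hdac7* lower, and for 20.6% of all genes. The share of all genes that was higher in every pair was 10.4%, and the share lower in every pair was 10.2%. After median centring or quantile normalization, *Hdac1* and *Hdac7* were left, or 2 members.

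The remaining class I genes varied in sign between pairs. *Hdac3*, on chromosome 18, encodes the catalytic subunit of the NCoR and SMRT complex. Its differences were 0.02, -0.07, -0.18 and 0.02, averaging -0.05 ± 0.09 (SD over 4 pairs), and limma gave an adjusted p of 0.727. *Hdac8*, an X-linked gene whose product deacetylates the cohesin subunit SMC3, had differences of -0.08, 0.11, 0.09 and 0.20, with a mean of 0.08 ± 0.12 and an adjusted p of 0.616. It is the most weakly expressed member, and its mean corresponds to 12.2% in normalized counts, with an interval from -6.95% to 35.2%.

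*Hdac6*, on the X chromosome, encodes the tubulin deacetylase. Its differences were 0.02, -0.04, -0.19 and -0.05, averaging -0.07 ± 0.09 (SD over 4 pairs), and limma gave an adjusted p of 0.634. *Hdac11*, on chromosome 6, encodes an enzyme that removes long fatty acyl groups from lysine. Its differences were 0.14, 0.09, -0.13 and 0.12, with a mean of 0.05 ± 0.13 and an adjusted p of 0.761. Pair 3 thus went against the other pairs of *Hdac11* and held the lowest difference of *Hdac3*, *Hdac4* and *Hdac6* as well.

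Per kilobase of the longest annotated transcript, *Hdac11* stood above the other members. The mean value of the 8 libraries was turned back to a normalized count on a variance-stabilizing curve, and this count is given per kilobase. *Hdac11* stood at 1596, followed by *Hdac5* at 679.5, *Hdac3* at 572, *Hdac2* at 512 and *Hdac6* at 311. Lower levels were found for *Hdac4* at 179.5, *Hdac1* at 169, *Hdac9* at 139.9, *Hdac7* at 138 and *Hdac8* at 76.3. The highest and lowest members thus differed 20.9-fold.

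Library ranges did not overlap between most neighbours in this order. *Hdac4*, from 166 to 194 over the 8 libraries, overlapped *Hdac1*, from 152 to 187, and *Hdac9*, from 131 to 149.7, overlapped *Hdac7*, from 115 to 164. The ranges hold only the spread within pairs, since the centring removed the rest. With the median transcript length in place of the longest, the span was 13.6-fold, *Hdac3* at 958 came before *Hdac5* at 923, and *Hdac4* at 462 came before *Hdac6* at 339.8. *Hdac11* stayed highest, at 1688, and *Hdac8* lowest, at 124.

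**Figure D3:**
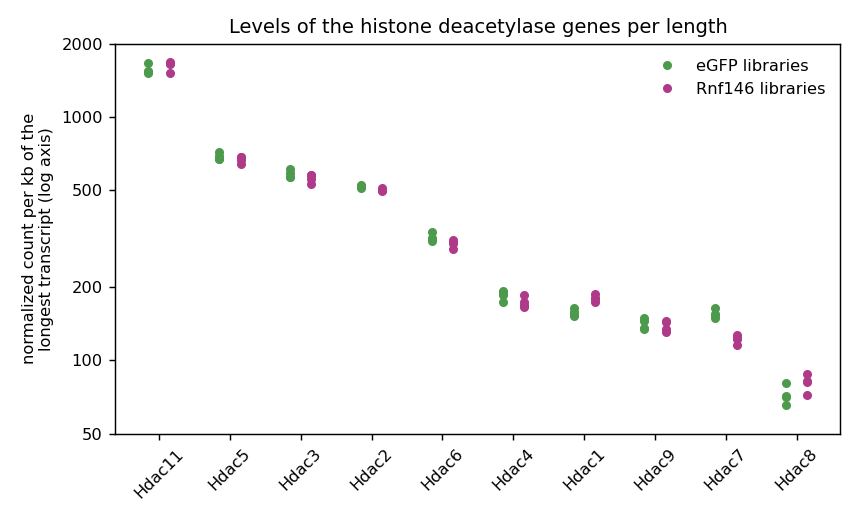
Normalized count per kilobase of the longest transcript (y axis, log scale) of the 10 genes (x axis, ordered by mean) in each of the 4 eGFP libraries (green) and the 4 Rnf146 libraries (purple). *Hdac11* lies between 1514 and 1682 and *Hdac8* between 65.7 and 87.8 over the libraries, and the purple points of *Hdac7* lie under its green ones.

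The genes that work with or against the HDACs were read from 10 lists that together hold 92 genes, of which 90 were in the table. None of the 90 was called by limma with the replicate block, 10 had an unadjusted p below 0.05, and 19 were called without the block, beside 12.4% and 21.5% of all genes. The lowest adjusted p was 0.241, for *Sik2*, a kinase that drives class IIa enzymes out of the nucleus, and this gene is named because of its value. Its differences were -0.36, 0.03, -0.47 and -0.20. Differences of 38 genes were above 0 on average and those of 52 were below 0, with a median of -0.02. All 4 pairs were higher for 7 of these genes and lower for 15, beside 10.4% and 10.2% of all genes.

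Corepressor subunits, which hold the class I enzymes on chromatin, gave medians near 0. The median difference was 0.01 for 13 NuRD genes, -0.05 for 13 Sin3 genes, -0.03 for 15 CoREST and MiDAC genes and 0.03 for 5 NCoR and SMRT genes. Of the Sin3 genes, 10 were below 0 on average and 3 above. Among genes with 1 direction in all pairs, *Chd5*, a neuronal NuRD remodeller, had the largest NuRD decrease, with -0.13, -0.23, -0.07 and -0.06 and an adjusted p of 0.352. *Mta1* had the largest NuRD increase, with a mean of 0.08 and an adjusted p of 0.572. The Sin3 scaffold gene *Sin3a* had a mean of 0.11 and *Brms1* one of -0.09, with adjusted p-values of 0.410 and 0.488. *Mier2*, an HDAC1-binding corepressor, had differences of -0.33, -0.09, -0.20 and -0.04 and an adjusted p of 0.297. *Tbl1x*, an NCoR subunit, had 0.14, 0.13, 0.09 and 0.08 and an adjusted p of 0.335.

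The genes around the class IIa enzymes were read in the same way. Of the MEF2 factors, *Mef2b* was absent from the table, *Mef2a* had a mean difference of 0.09, and *Mef2d* had differences of -0.08, -0.00065, -0.19 and -0.15 with a mean of -0.11. Their adjusted p-values were 0.450 and 0.424. *Mef2c*, the remaining factor, had differences of 0.05, -0.27, -0.12 and -0.22, with a mean of -0.14 and an adjusted p of 0.400. It is named because its mean was the largest in size of the list. The 14 kinases that phosphorylate class IIa enzymes had a median of -0.02, and *Camk1* had the largest decrease with 1 direction, at a mean of -0.16 and an adjusted p of 0.330. The 6 of 7 14-3-3 genes in the table had a median of -0.01. *Ywhag*, the one with the largest decrease in all pairs, had a mean of -0.02, which was 0.02 after quantile normalization. The 14-3-3 gene *Sfn* was absent from the table.

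The other deacetylases and the opposing acetyltransferases held no called gene either. The median was -0.04 for 8 other deacetylases, 0.02 for 10 acetyltransferases and -0.02 for 3 BET readers of acetylated lysine. *Hdac10*, the second class IIb gene, had differences of -0.18, -0.25, 0.06 and 0.06, with a mean of -0.08 and an adjusted p of 0.697. *Kat2b*, the acetyltransferase PCAF, had 0.28, 0.08, 0.19 and 0.06, with an adjusted p of 0.305, and *Kat2a* had a mean of -0.03 with an adjusted p of 0.796. *Sirt2*, a tubulin deacetylase known from myelinating oligodendrocytes, had 0.01, 0.14, 0.23 and 0.15, with an adjusted p of 0.320. *Sirt7* had a mean of -0.04 and an adjusted p of 0.756.

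**Figure D4:**
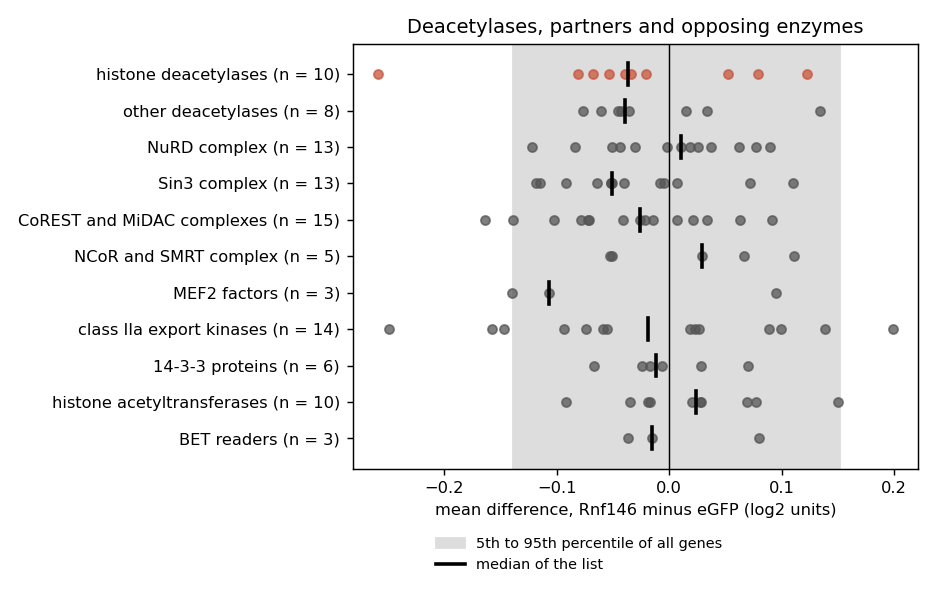
Mean difference between Rnf146 and eGFP libraries, in log2 units (x axis), of each gene in the histone deacetylase set (red) and in the 10 lists of partners and opposing enzymes (grey), with the median of each list (black bar) and the 5th to 95th percentile of all genes (grey band). *Hdac7* at -0.26 and *Sik2* at -0.25 are the lowest points.

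The tissue was bulk cortex, and markers of several cell types differed between the groups. In bulk RNA, fewer cells of a type cannot be told apart from less RNA per cell. All 8 markers of cortical excitatory neurons were in the table and below 0 on average. Their mean difference was -0.34, -0.32, -0.0013 and -0.14 in the 4 pairs, and 2 of them were called lower. All 7 microglia markers were below 0 on average, 6 of them in every pair, with 1 called lower and list means of -0.20, -0.29, -0.11 and -0.15. Markers of septal neurons (7 of 8 in the table, *Chat* absent), most of them *Zic* genes, were all called higher, averaging 0.54 ± 0.15. The marker lists were chosen with earlier results of these data known. Their counts therefore describe the listed genes and do not test a cell type. Of the 7 interneuron markers, the 3 general GABAergic genes *Gad1*, *Gad2* and *Slc32a1* were called higher, with means of 0.45, 0.64 and 0.53. The 4 subtype markers had means below 0 and were not called, at -0.23 for *Vip*, -0.11 for *Lhx6*, -0.06 for *Sst* and -0.03 for *Pvalb*. Striatal and oligodendrocyte markers averaged 0.55 ± 0.61 and 0.45 ± 0.44, and none was called by limma, with an unadjusted p below 0.05 for 9 and 10 of the 10 genes.

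Microglia and excitatory neuron markers were lower beside the fall of *Hdac7*. Summed normalized counts of the 7 microglia markers ran from 6439 to 7216 in eGFP libraries and from 5219 to 5849 in Rnf146 libraries, and those of the 8 excitatory markers from 64089 to 70907 and from 55144 to 60939. The weakest of these markers was *Aif1*, at 93.1 normalized counts, beside 25.2 for the weakest gene of the table. In pair 3, where the excitatory markers differed by -0.0013, *Hdac7* differed by -0.24. The 6 endothelial markers, in the cell type for which *Hdac7* is known, differed by -0.06, -0.05, 0.11 and 0.04, averaging 0.01 ± 0.08, and by limma none was called and 0 had an unadjusted p below 0.05. Their summed counts ran from 2910 to 3250 in eGFP libraries and from 3008 to 3354 in Rnf146 libraries. Striatal markers differed by -0.10, 1.32, 0.72 and 0.27 in the 4 pairs, lowest in pair 1 and highest in pair 2. *Hdac7* fell least in pair 1 and most in pair 2. Oligodendrocyte markers, given below, were lowest in pair 1 and highest in pair 3. The part of the microglia, excitatory, endothelial, septal, interneuron, striatal and oligodendrocyte cells in the fall of *Hdac7* was not tested.

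*Hdac1*, *Hdac11* and *Sirt2* are expressed in glia among other cells, so oligodendrocyte and astrocyte markers were read beside the values. Oligodendrocyte markers differed by -0.14, 0.46, 0.93 and 0.54 in the 4 pairs. *Sirt2* had its lowest difference in pair 1 and its highest in pair 3, as these markers did. *Hdac1* had its highest difference in pair 1, where they were lowest, and *Hdac11* had its lowest in pair 3, where they were highest. Astrocyte markers averaged -0.05 ± 0.05 (SD, n = 4 pairs), and general neuronal markers averaged -0.02 ± 0.08. The part of these markers in the differences was not tested.

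**Figure D5:**
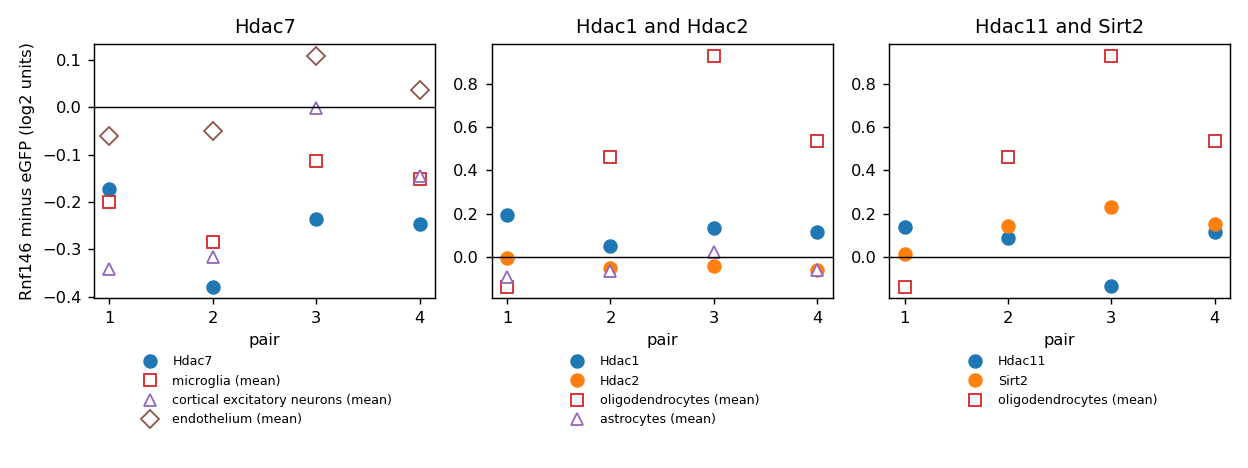
Difference between the Rnf146 and the eGFP library, in log2 units (y axis), in each of the 4 pairs (x axis), for deacetylase genes (filled symbols) and for the mean of marker lists (open symbols); the y axes of the panels differ. *Hdac7* is at or below -0.17 in every pair. The endothelial mean lies between -0.06 and 0.11 and the microglial mean between -0.29 and -0.11.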

How the data were processed

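TruSeq stranded mRNA libraries were made from PFC tissue, 4 for Rnf146 and 4 for eGFP. The authors trimmed reads with Cutadapt, quantified transcripts with Salmon 1.9.0 against GENCODE vM30 (GRCm39) and deposited 1 table for 15039 genes, whose values are taken to be variance-stabilized log2 values. The deposited log2 values were centred within same-numbered pairs, as equal pair sums show (largest spread 1.4e-13), which fixes the correlation of same-numbered deviations at -1 and is the source of the pairing.

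The sample titles gave each group and replicate number. Values were tested with limma 3.58.1 in R 4.3.3 (lmFit, eBayes with trend), with the replicate number as a block, Benjamini-Hochberg adjustment over all 15039 genes and a threshold of 0.1. This was tested on simulated data first. Normalized counts were read from a variance-stabilizing curve, fitted over 294 genes whose mean counts stand in the paper's supplement (median absolute residual 0.00635, largest 0.539). An exact sign-flip test of 4 pairs has 16 combinations. Gene models and lengths are from GENCODE vM39. Python 3.11.15 was used for other steps.

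Members and gene lists were chosen with earlier results of these data known. The genes named are all members, *Rnf146*, any called list gene, and the largest increase and decrease with 1 direction in all pairs of each list. *Sik2*, *Mef2c*, *Hdac10*, *Slc48a1* and the marker genes are exceptions, named with their values known. Alternatives were no replicate block, median centring, quantile normalization, robust or untrended variances, array weights, the lowest 25% of genes left out, log2 normalized counts with an offset of 0.5, each pair left out, and an adjusted p of 0.05.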

Additional observations from a re-analysis of the deposited data

How the results depend on the processing

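With 4 pair differences and unknown depth, small differences of the 10 genes cannot be resolved: the 95% intervals of the 9 not called reach from -0.20 to 0.23 log2 units. The Rnf146 mice had been selected for overexpression and social deficits, which is not described for the eGFP mice, and reads of *Hdac1* can be shared with its pseudogene. Of 130 recomputed differences of the members (13 alternatives each), 122 kept their direction and their side of the threshold. *Hdac7* was below 0 in all 13 and was called in 9, with adjusted p-values from 0.0018 to 0.328 by limma. Its difference was -0.35 in log2 normalized counts, which is another scale, and from -0.29 to -0.22 in the other alternatives. Several alternatives could not test direction. Dropping the block, robust or untrended variances, leaving out the lowest 25% of genes and the 0.05 threshold leave every member's difference unchanged, at -0.26 for *Hdac7*. With any pair left out, *Hdac7* had to stay below 0, because all 4 pair differences were. Its 9 calls include the fit without the block, which gave the 0.0018.

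The replicate block changed the calls most: without it, 3226 genes, 2 members (*Hdac7* and *Hdac1*) and 19 list genes were called, in place of 188, 1 and 0. The centred values are then taken for 8 independent libraries. Array weights gave 355 called genes. With a threshold of 0.05, 80 genes and 0 members were called. When each pair was left out in turn, between 14 and 421 genes and between 0 and 1 members were called, and between 3 and 6 members had 1 direction over the 3 pairs left. The 6 were reached without pair 1, where 36.2% of all genes had 1 direction. That share was 30.2% to 33.8% without another pair. *Hdac5* then ranged from -0.0545 to 0.0016 and *Hdac9* from -0.0575 to 0.0237. *Ywhag* was 0.0178 after quantile normalization. The span of levels per length fell from 20.9-fold to 13.6-fold with median transcript lengths. Where no cause is given, the cause was not tested. The number of members with 1 direction was 2 after median centring or quantile normalization. Of the 33 groups of 4 values examined, none held a library far from the other 3.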
